A study of Mus musculus with 12 samples.

Results

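Sst, Gcg, Cck, Gip, Ghrl, Nts, Pyy, Sct and Tac1, which encode peptide hormones of the gut, and Tph1, which encodes the enzyme that starts serotonin synthesis, were examined as 1 gene set in cells sorted from mouse small intestinal crypts. The members were named by symbol, with no measured value in the rule, but were chosen with earlier results of these data known. All 10 were found among the 55414 genes of the count table. All 10 also passed the filter on low counts that left 13057 genes for testing. The series holds 12 bulk RNA-seq libraries in 4 groups of 3. The mice were naive adults on a C57BL/6J background. WT_PC and WT_nonPC were Paneth cells and non-Paneth crypt cells of wild-type mice, and KO_PC and KO_nonPC were the same fractions of GRvillinKO mice, in which Nr3c1, the glucocorticoid receptor gene, is deleted by a Cre recombinase that the villin promoter drives in gut epithelial cells. Paneth cells were gated as CD24-positive, cKIT-positive cells of medium to high side scatter, after exclusion of CD31-, CD45- and TER119-positive cells. The gate for non-Paneth cells, and whether the wild-type mice carried floxed Nr3c1 alleles, were not given in the sources used here. Groups were taken from the sample titles, because the genotype field gave every PC library as wild type and every nonPC library as knockout.

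Enteroendocrine cells are rare secretory cells scattered through the crypt and villus epithelium. They release peptides and amines in response to nutrients and other luminal signals, and their subtypes are defined by what they store: D cells hold somatostatin, L cells glucagon-like peptides and peptide YY, I cells cholecystokinin, K cells GIP, X cells ghrelin, N cells neurotensin, S cells secretin and enterochromaffin cells serotonin, often with tachykinins. Hormones of the same cell can change as it matures and moves up the villus, and chromogranins (Chga, Chgb) mark the dense-core granules that most subtypes share. Because each library is a bulk sample, fewer cells of a type and less RNA per cell cannot be told apart here. Paneth and non-Paneth cells below stand for the sorted PC and nonPC fractions. Tuft, goblet and enteroendocrine markers also had counts in the PC libraries, and which cells held the hormone transcripts was not tested.

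Library totals ran from 11126297 to 15910292 counts, and levels are given as CPM, the gene's count in proportion to the TMM-scaled library total. Nr3c1 had 1735, 2170 and 2452 counts in the WT_nonPC libraries and 430, 312 and 569 in the KO_nonPC libraries, and 430, 407 and 457 counts in WT_PC against 66, 66 and 163 in KO_PC. It was therefore lower in every knockout library than in any wild-type library of the same fraction, as the titles state. The enteroendocrine markers Chga, Chgb, Scg2, Neurod1 and Pax6 had counts in all 12 libraries, with Chga between 1040 and 2654 counts in nonPC and between 153 and 323 in PC libraries. The mast cell gene Cpa3 had no count in any library, which allows at most 3 counts in each. The 10 genes together took 0.0115% to 0.0440% of the counts of a nonPC library and 0.00495% to 0.0117% of those of a PC library.

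Sst, Gip and Ghrl are shown with the 250 bases before their RefSeq transcription start because they were the 3 members that differed between genotypes in non-Paneth cells. The genes, all protein-coding, span chr16:23707321-23711733 (Sst), chr11:95909127-95921657 (Gip) and chr6:113693080-113696844 (Ghrl) in GENCODE vM39 on GRCm39. The sequences came from RefSeq (GRCm38.p6) and were placed on GRCm39 by an exact and unique match. All 10 members had an entry, and where a gene had several the one nearest the start of the GENCODE canonical transcript was used. For Ghrl that was 1 of 4 entries, 28 bases from the canonical start, against 114 bases for Sst and 4 for Gip. Lower case is sequence without a searched motif, and capitals mark a match on either strand to TGACGTCA (the cAMP response element), CAGATG (an E-box of the kind that basic helix-loop-helix factors such as Neurod1 bind), AGAACA (either arm of the glucocorticoid response element) or TATAAA (the TATA box).
Sst, chr16:23709595-23709844, minus strand: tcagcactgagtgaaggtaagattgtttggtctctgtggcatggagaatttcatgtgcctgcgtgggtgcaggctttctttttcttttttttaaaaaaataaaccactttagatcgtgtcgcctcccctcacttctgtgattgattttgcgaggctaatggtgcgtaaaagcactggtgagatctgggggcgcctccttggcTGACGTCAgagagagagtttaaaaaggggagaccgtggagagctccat
Gip, chr11:95915121-95915370, plus strand: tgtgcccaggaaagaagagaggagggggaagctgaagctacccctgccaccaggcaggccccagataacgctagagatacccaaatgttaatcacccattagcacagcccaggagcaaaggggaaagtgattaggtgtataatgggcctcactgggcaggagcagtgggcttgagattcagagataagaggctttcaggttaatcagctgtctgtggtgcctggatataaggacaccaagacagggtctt
Ghrl, chr6:113696873-113697122, minus strand: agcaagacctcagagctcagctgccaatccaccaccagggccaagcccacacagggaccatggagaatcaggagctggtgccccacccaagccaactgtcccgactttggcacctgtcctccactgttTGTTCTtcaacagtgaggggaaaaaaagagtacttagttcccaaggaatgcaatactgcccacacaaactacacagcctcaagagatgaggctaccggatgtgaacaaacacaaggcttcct
Sst held 1 cAMP response element, 48 to 41 bases before the start, a motif present in 1.55% of the 32851 promoters of the same length. None of the other 9 members held it. Ghrl held 1 AGAACA on the antisense strand, 122 to 117 bases before the start, and 16.1% of all promoters held that motif. Gip held none of the motifs. The E-box was present in 4 of the 10 members (Gcg, Cck, Sct and Tac1) and in 14.4% of all promoters, and TATAAA in Gcg and Sct and in 12.4% of all promoters. For Tac1 the RefSeq start lay 941 bases from the canonical start. The bases searched for Tac1, Sst, Gip and Tph1 lie wholly within the GENCODE gene. The Sst canonical start lies 114 bases before its RefSeq start, so the cAMP response element falls within the span of the canonical transcript. The whole palindromic glucocorticoid response element, with both arms 3 bases apart, was in none of the 10 and in 0.00913% of all promoters. A match describes these letters and does not show binding.

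Levels were set beside each other per kilobase of the canonical transcript. In WT_nonPC libraries, Sct was the highest (46.3 ± 16.7 CPM per kb, SD, n = 3), followed by Gcg (34.8 ± 4.29), Nts (29.1 ± 27.4), Gip (12.3 ± 9.05), Pyy (10.2 ± 5.92), Tac1 (5.87 ± 3.08), Cck (4.17 ± 1.96), Ghrl (2.91 ± 2.73), Tph1 (2.39 ± 0.759) and Sst (1.63 ± 0.987). Neighbours in this order overlapped in all 9 cases, so the order is firm only between genes far apart in it. In KO_nonPC libraries the order opened with Gip (69.9 ± 19.9 CPM per kb), whose libraries all lay above those of Gcg (44.8 ± 13.0), and Sst had moved from the last place to the fourth (21.4 ± 2.49). In both Paneth cell groups Sct came out on top, at 62.0 ± 10.6 CPM per kb in WT_PC and 49.8 ± 6.15 in KO_PC, with no overlap with the next gene. Tph1 was the lowest in WT_PC (0.629 ± 0.159) and KO_PC (0.498 ± 0.0694). With the merged length of all annotated exons in place of the canonical transcript, Sct or Gip stayed on top of the same groups, and Sst took the sixth place in KO_nonPC.

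**Figure D1:**
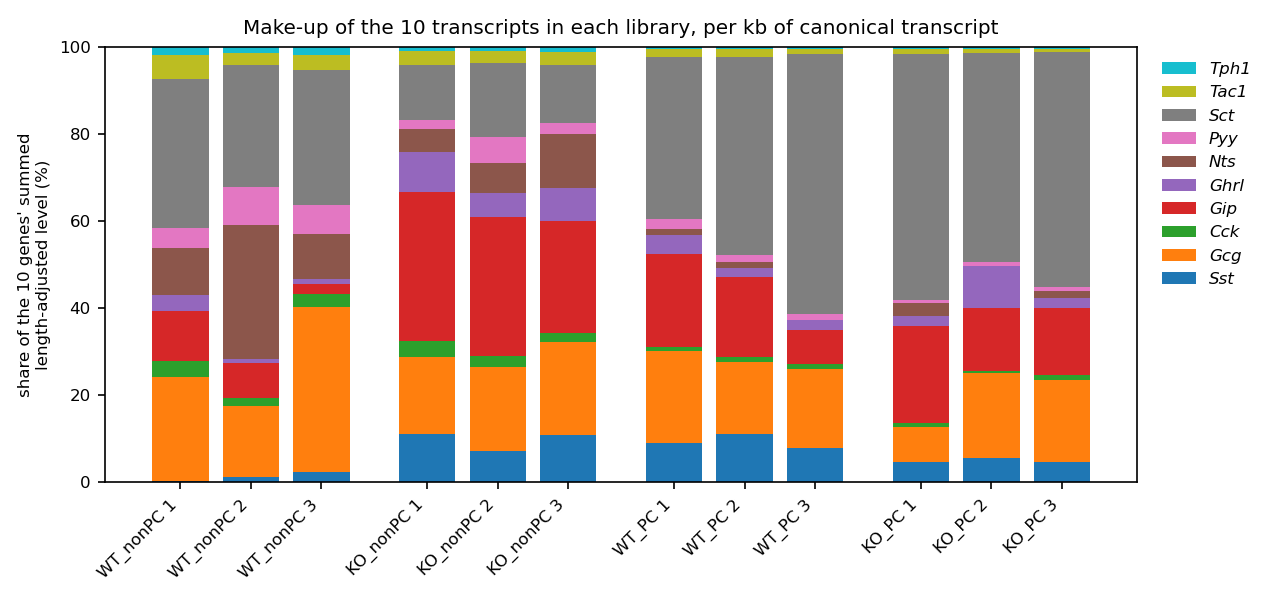
Stacked bars give the share of each gene in the summed level of the 10 genes, per kb of canonical transcript, in each of the 12 libraries (in percent). Gip and Sst took larger shares in all 3 KO_nonPC libraries than in any WT_nonPC library, and Sct took the largest share in every PC library.

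In shares of the summed level, Sct made up 47.5% ± 11.3 of the 10 transcripts in WT_PC and 52.8% ± 4.31 in KO_PC, against 31.1% ± 3.14 in WT_nonPC and 14.4% ± 2.44 in KO_nonPC (SD, n = 3). Gip took 7.30% ± 4.61 in WT_nonPC and 30.7% ± 4.37 in KO_nonPC. Sst took 1.27% ± 0.986 and 9.70% ± 2.19 in the same groups, with no overlap between libraries for either gene. Shares of a sum depend on one another, so a larger Gip share lowers the others.

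The first question was how hormone transcripts were spread between the sorted fractions of wild-type mice. Sst was higher in Paneth cell libraries, Cck, Nts, Pyy, Tac1 and Tph1 were lower, and Gcg, Gip, Ghrl and Sct did not pass the test. That is 1 of 10 higher and 5 of 10 lower, where 24.0% of all genes tested were higher and 26.7% lower. The median log2 difference of the 10 was -0.91, against 0.01 for all genes.

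Sst, the gene of somatostatin, which inhibits the release of most other gut hormones, had 259, 251 and 103 counts in the WT_PC libraries and 14, 71 and 64 in the WT_nonPC libraries. Scaled, these were 22.6 ± 9.59 and 2.81 ± 1.70 CPM, and all 3 PC libraries lay above all 3 nonPC libraries. The difference was 7.93-fold (log2 2.99, SE 0.454, adjusted p = 0.000262 by edgeR's quasi-likelihood test). Sst was the only member of the 10 called in this direction in this fit, which ignored replicate numbers.

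Tph1, the rate-limiting enzyme of serotonin synthesis outside the brain, had 32, 25 and 16 counts in WT_PC and 199, 195 and 122 in WT_nonPC, a log2 difference of -1.92 (SE 0.301, edgeR adjusted p = 7.84e-05). Tac1, the precursor of substance P, had 70, 56 and 21 counts in WT_PC and 343, 224 and 135 in WT_nonPC (log2 -1.38, SE 0.424, edgeR adjusted p = 0.0175). For both genes, which are typical of enterochromaffin cells, no PC library reached the lowest nonPC library in CPM. Cck, whose product empties the gallbladder and stimulates pancreatic secretion, had 61, 65 and 35 counts against 400, 241 and 196 (log2 -1.47, SE 0.354, edgeR adjusted p = 0.00376), again without overlap.

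Nts and Pyy, hormones made mostly in the distal gut, were also lower in the Paneth cell fraction. Nts, the gene of neurotensin, had 28, 24 and 0 counts in WT_PC and 351, 1295 and 210 in WT_nonPC (log2 -4.24, SE 1.15, edgeR adjusted p = 0.0139). The count of 0 allows up to 0.355 CPM in that library. Pyy, the gene of the satiety peptide PYY, had 20, 12 and 6 counts against 67, 160 and 60 (log2 -2.0, SE 0.617, edgeR adjusted p = 0.0161), without overlap. Gcg, the precursor of glucagon-like peptides and like Pyy a product of L cells, stood at 27.9 ± 9.82 CPM in WT_PC and 38.0 ± 4.69 in WT_nonPC (log2 -0.44, SE 0.346, edgeR adjusted p = 0.318), and the libraries overlapped. Sct, which triggers bicarbonate secretion from the pancreas, had 327, 310 and 233 counts in WT_PC and 468, 490 and 264 in WT_nonPC (log2 0.42, SE 0.317, edgeR adjusted p = 0.292), with an interval of -0.27 to 1.12. Gip had 235, 157 and 38 counts in WT_PC and 197, 178 and 25 in WT_nonPC (log2 0.95, SE 0.745), and Ghrl 70, 25 and 16 against 89, 28 and 17 (log2 0.56, SE 0.828). With replicate numbers ignored, the spread of Gip and Ghrl within a group was wider than the difference between the groups.

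Same-numbered PC and nonPC libraries of wild-type mice deviated together from their group means. With that number as a block, Gcg was lower (log2 -0.49, edgeR adjusted p = 0.0171) and Gip higher in WT_PC (log2 1.03, edgeR adjusted p = 0.00123), so that 8 members were called. Single libraries decided 3 of the 6 calls. Without WT_nonPC replicate 2, Nts had an edgeR adjusted p of 0.0526 and a log2 difference of -3.03, and Pyy 0.0851 and -1.32. Without WT_PC replicate 3, Pyy stood at 0.0639 and Tac1 at 0.0510 (edgeR adjusted p), and without WT_nonPC replicate 1 Tac1 stood at 0.0907, with a log2 difference of -0.83. A fit of WT_PC and WT_nonPC alone also left Tac1 uncalled (log2 -1.39, edgeR adjusted p = 0.0518).

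**Figure D2:**
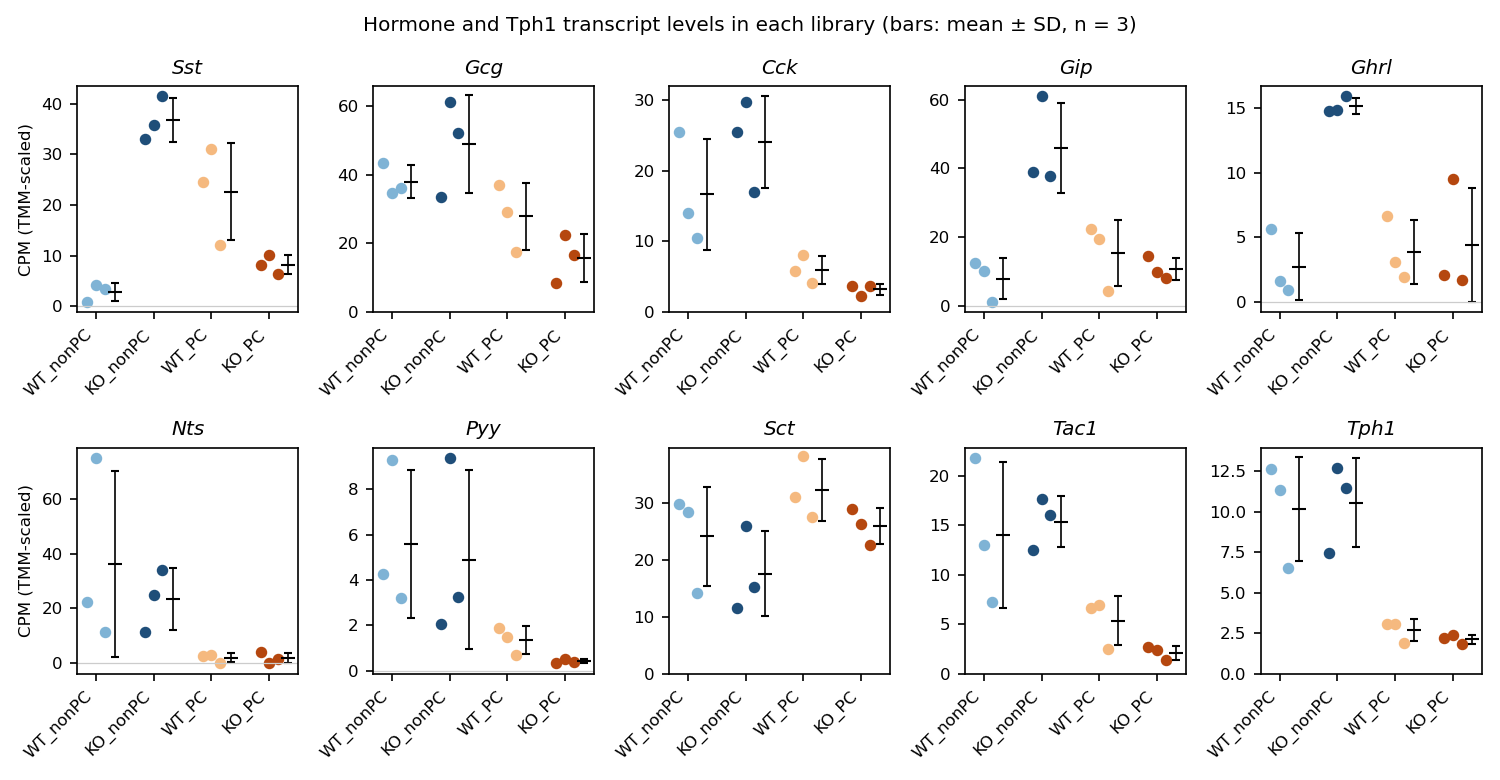
Each panel gives 1 gene, with the level in CPM after TMM scaling on the vertical axis, 1 point per library and the mean ± SD of the 3 libraries of a group beside them. Sst, Gip and Ghrl sit higher in every KO_nonPC library than in any WT_nonPC library, while Tac1 and Tph1 overlap between those groups.

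The loss of Nr3c1 was then examined within the non-Paneth fraction. Sst, Gip and Ghrl were higher in KO_nonPC than in WT_nonPC, and the other 7 members were not called. That is 3 of 10 higher and 0 lower, where 17.5% of all genes tested were higher and 19.8% lower, so many genes differed between these groups. The median log2 difference of the 10 was 0.25, against 0.02 for all genes.

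Sst had 710, 856 and 963 counts in KO_nonPC and 14, 71 and 64 in WT_nonPC, or 36.8 ± 4.28 against 2.81 ± 1.70 CPM. The lowest knockout library was thus far above the highest wild-type library, and the spread among knockout libraries was small. The difference was 12.9-fold (log2 3.69, SE 0.450, 95% CI 2.69 to 4.69, edgeR adjusted p = 0.000173). Sst passed the test under all 14 alternatives tried for this comparison.

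Gip, the gene of the incretin released by K cells of the upper intestine, had 835, 1454 and 876 counts in KO_nonPC and 197, 178 and 25 in WT_nonPC. The levels were 45.9 ± 13.1 and 8.07 ± 5.93 CPM, without overlap. The difference was 5.73-fold (log2 2.52, SE 0.731, edgeR adjusted p = 0.0255). Ghrl, the gene of ghrelin, the appetite-stimulating peptide best known from the stomach and also made in the duodenum, had 316, 354 and 369 counts in KO_nonPC and 89, 28 and 17 in WT_nonPC. Its knockout libraries lay close together at 15.2 ± 0.648 CPM, against 2.73 ± 2.56 CPM in WT_nonPC, which is 5.63-fold (log2 2.49, SE 0.759, edgeR adjusted p = 0.0290). Mboat4, the enzyme that attaches the fatty acid ghrelin needs to act on its receptor, had 26, 29 and 20 counts in KO_nonPC and 2, 4 and 2 in WT_nonPC (log2 2.76, SE 0.675, edgeR adjusted p = 0.00522), likewise without overlap.

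The calls for Gip and Ghrl were lost on leaving out any 1 KO_nonPC library, although their direction held. Such a fit also has fewer libraries, so the loss does not mark a library as unusual. Gip had an edgeR adjusted p of 0.0568, 0.0892 and 0.0518 without KO_nonPC replicate 1, 2 or 3, of 0.0664 without WT_nonPC replicate 2 and of 0.0580 in a fit of these 2 groups alone. Ghrl had an edgeR adjusted p of 0.0677, 0.0733 and 0.0697 without KO_nonPC replicate 1, 2 or 3, of 0.112 and 0.0891 without WT_nonPC replicate 2 or 3, and a log2 difference of 3.52 without WT_nonPC replicate 1, the wild-type library in which it was highest.

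Tph1 and Tac1 were not called between genotypes in this fraction. Tph1 had 160, 303 and 267 counts in KO_nonPC and 199, 195 and 122 in WT_nonPC, or 10.6 ± 2.75 and 10.2 ± 3.23 CPM (log2 0.06, 95% CI -0.49 to 0.60). Tac1 stood at 15.4 ± 2.62 and 14.0 ± 7.35 CPM (log2 0.14, 95% CI -0.69 to 0.97). These intervals leave room for differences of less than a doubling in either direction. Gcg, with 716, 1458 and 1211 counts against 681, 595 and 674, had a log2 difference of 0.37 (95% CI -0.38 to 1.11), and Cck one of 0.53 (95% CI -0.15 to 1.22). Nts, Pyy and Sct had log2 differences of -0.63, -0.19 and -0.45, with overlapping libraries. Over the 14 alternatives the log2 difference ran from -1.12 to 0.44 for Nts, from -1.14 to 0.35 for Pyy, from -0.24 to 0.35 for Tph1 and from -0.24 to 0.55 for Tac1, so none of these 4 has a firm sign here. Nts varied from 11.2 to 75.3 CPM among the WT_nonPC libraries. Leaving out KO_nonPC replicate 2, in which Sct was highest, gave Sct an edgeR adjusted p of 0.0291 and a log2 difference of -0.91, and without WT_nonPC replicate 3 the values were 0.0419 and -0.78. Without WT_nonPC replicate 1, Cck had an edgeR adjusted p of 0.0254 and a log2 difference of 0.92.

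**Figure D3:**
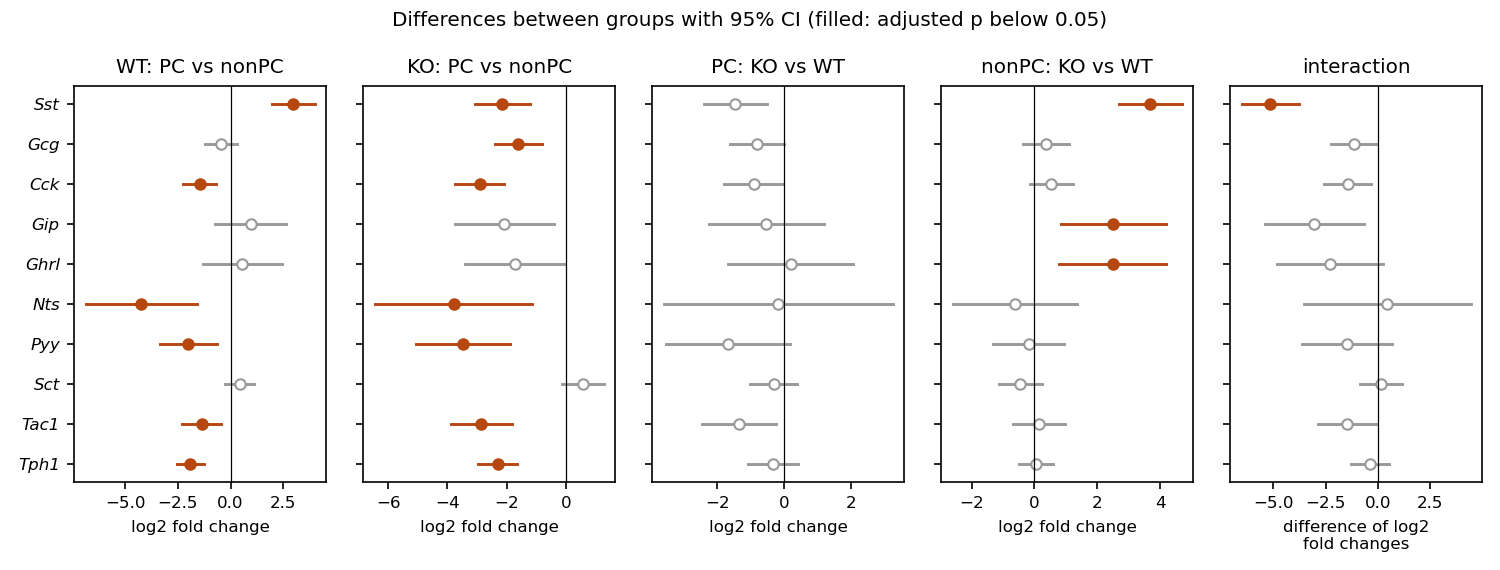
Points give the log2 fold change of each gene in 4 comparisons and, on the right, the difference of the genotype effects (PC minus nonPC), with lines for the 95% confidence interval and filled symbols where the adjusted p was below 0.05. Sst points in opposite directions in the fraction comparisons of wild-type and knockout mice, and is the only filled symbol of the interaction panel.

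Set against the chromogranins of the same library, the members fell into separate patterns. Per 100 counts of Chga and Chgb combined, Sst stood at 1.32 ± 1.1 counts in WT_nonPC and 10.6 ± 1.61 in KO_nonPC, Gip at 2.44 ± 1.46 and 13.0 ± 2.36 and Ghrl at 0.796 ± 0.344 and 4.39 ± 0.793, none with overlap. These ratios are a description, and no test was run on them. Tac1 stood at 4.71 ± 0.0967 per 100 chromogranin counts in WT_nonPC and 4.36 ± 0.0614 in KO_nonPC, the smallest SDs of the 6 genes plotted in these groups. Its KO_nonPC libraries (up to 4.41) all lay below its WT_nonPC libraries (from 4.60). Tph1 stood at 3.71 ± 0.905 and 2.96 ± 0.282, with overlap. Sct had 8.67 ± 2.14 counts per 100 in WT_nonPC and 4.85 ± 1.28 in KO_nonPC, but 32.6 ± 8.23 in WT_PC and 34.4 ± 8.69 in KO_PC, so that every PC library exceeded every nonPC library. In WT_PC the Sst ratio was 21.6 ± 6.82, the highest of the 4 groups, and all 3 libraries lay above those of the other groups. Chga and Chgb themselves did not differ between KO_nonPC and WT_nonPC by the test (log2 -0.12, SE 0.300, and 0.40, SE 0.407).

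**Figure D4:**
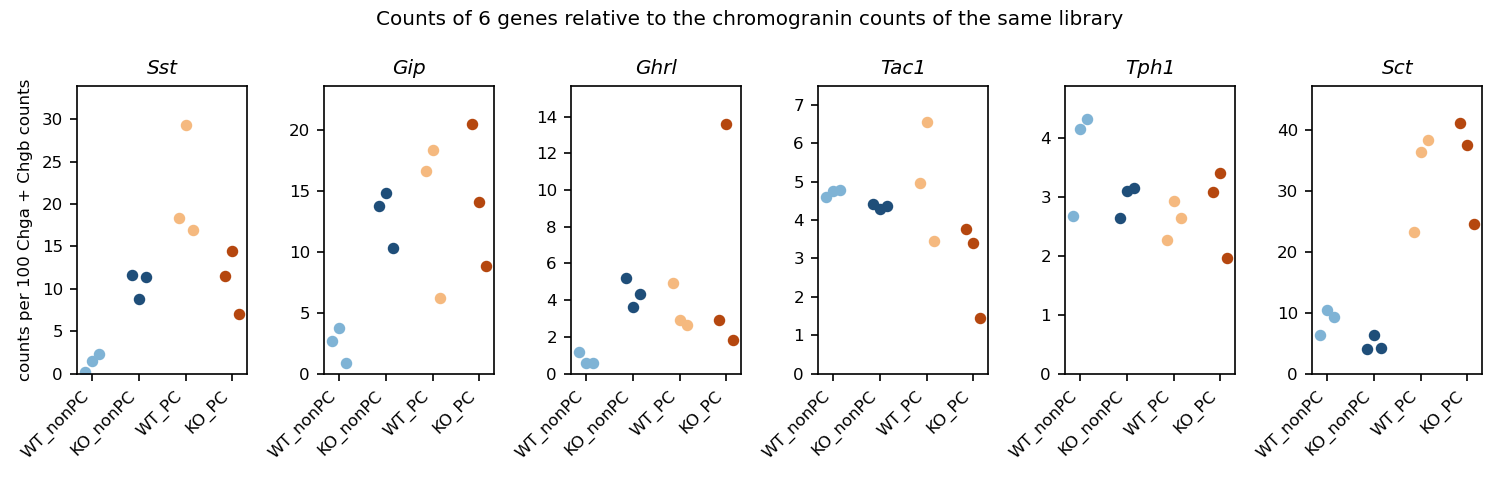
Points give the counts of 6 genes per 100 counts of Chga and Chgb in each library, in the 4 groups. Sst, Gip and Ghrl are higher in all KO_nonPC than in all WT_nonPC libraries, and Sct is highest in the PC libraries. Tac1 lies between 4.29 and 4.41 in the KO_nonPC and between 4.60 and 4.77 in the WT_nonPC libraries.

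In Paneth cells, none of the 10 members passed the test between genotypes, where 1.70% of all genes tested were higher and 1.52% lower in KO_PC. At an unadjusted p below 0.05, 4 of the 10 (Sst, Gcg, Cck and Tac1) were lower, and 3491 of the 13057 genes tested passed, counted over both directions. Sst had 67, 115 and 68 counts in KO_PC and 259, 251 and 103 in WT_PC, or 8.22 ± 1.85 against 22.6 ± 9.59 CPM without overlap, and its log2 difference was -1.46 (SE 0.426, edgeR adjusted p = 0.0749). DESeq2 called Sst (adjusted p = 0.00556) and Tac1 (adjusted p = 0.0258), both lower in KO_PC. Without WT_PC replicate 3, the wild-type library with the fewest Sst counts, the edgeR adjusted p of Sst was 0.0390. Tac1 had 22, 27 and 14 counts in KO_PC and 70, 56 and 21 in WT_PC, and its libraries overlapped in CPM. As for Sst, the KO_PC libraries of Cck, with 30, 26 and 39 counts against 61, 65 and 35, and of Pyy, with 3, 6 and 4 against 20, 12 and 6, were all below the WT_PC libraries in CPM, at log2 -0.91 (edgeR adjusted p = 0.177) and -1.67 (edgeR adjusted p = 0.229). The Pyy counts are too few to set a level, since the exact Poisson interval of 3 counts runs from 0.619 to 8.77. Gcg (log2 -0.81), Gip (-0.53), Ghrl (0.19), Nts (-0.18), Sct (-0.32) and Tph1 (-0.34) also had overlapping libraries, and the median of the 10 was -0.67 against 0.03 for all genes. For Ghrl, 108 counts in KO_PC replicate 2 stood beside 17 and 18 in the others.

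In knockout mice, the Paneth cell fraction held less of most members than the non-Paneth fraction. Sst, Gcg, Cck, Nts, Pyy, Tac1 and Tph1 were lower in KO_PC than in KO_nonPC and none was higher, which is 7 of 10 lower where 21.2% of all genes tested were lower and 18.0% higher. The log2 differences were -2.16 for Sst (SE 0.419), -1.61 for Gcg (SE 0.356), -2.92 for Cck (SE 0.376), -3.80 for Nts (SE 1.16), -3.49 for Pyy (SE 0.727), -2.87 for Tac1 (SE 0.469) and -2.31 for Tph1 (SE 0.305), with edgeR adjusted p-values between 2.72e-05 for Tph1 and 0.0301 for Nts. Gip (log2 -2.09, edgeR adjusted p = 0.0505) and Ghrl (-1.74, edgeR adjusted p = 0.0963) were also lower in every KO_PC library, and Sct stood at 0.56 (edgeR adjusted p = 0.192). Without KO_PC replicate 2, Ghrl had a log2 difference of -3.02 and an edgeR adjusted p of 0.0120. Nts had edgeR adjusted p-values of 0.0819 and 0.0884 without KO_PC replicate 2 or 3 and of 0.0754 and 0.0951 without KO_nonPC replicate 2 or 3, and a log2 difference of -4.90 without KO_PC replicate 1. Without KO_nonPC replicate 2, Sct had an edgeR adjusted p of 0.0120 and a log2 difference of 1.06, and Pyy a log2 difference of -2.50.

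The comparison of fractions in wild-type and in knockout mice shares no library, but both use the same groups as the comparisons of genotypes. The test of the difference between the genotype effects in the 2 fractions called 1 of the 10 members, where 7.28% of all genes tested had a negative and 11.5% a positive call. That member was Sst, with a log2 difference of -5.15 (SE 0.618, 95% CI -6.51 to -3.78, edgeR adjusted p = 0.000646), and it passed under all 19 alternatives. The log2 difference of Sst between genotypes was -1.46 in the PC fraction and 3.69 in the nonPC fraction. The fraction in which Sst was highest thus switched from PC in wild-type to nonPC in knockout mice. Cck (log2 -1.44, edgeR adjusted p = 0.0703), Gip (-3.05, edgeR adjusted p = 0.0764), Tac1 (-1.49, edgeR adjusted p = 0.125), Gcg (-1.17, edgeR adjusted p = 0.126) and Ghrl (-2.30, edgeR adjusted p = 0.186) had the same sign without passing. Tph1 (-0.40) and Sct (0.14) had small values, and those of Nts (0.45, SE 1.74) and Pyy (-1.48, SE 1.0) were imprecise. With the replicate number as a block within genotype, Gcg (log2 -1.18, edgeR adjusted p = 0.00179), Cck (-1.44, edgeR adjusted p = 0.0249), Gip (-3.11, edgeR adjusted p = 1.06e-05) and Tac1 (-1.50, edgeR adjusted p = 0.00546) were called beside Sst, which makes 5 members. The number was taken as a pairing in wild-type mice and was not established as one in knockout mice. Single libraries moved calls here as well. Gip had an edgeR adjusted p of 0.0454 and Tac1 of 0.0485 without WT_PC replicate 3, Cck of 0.0101 and Tac1 of 0.0307 without WT_nonPC replicate 1, Cck of 0.0469 without KO_nonPC replicate 3 and Ghrl of 0.0420 without KO_PC replicate 2.

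The genes around these hormones were read from lists chosen with earlier results of these data known, so their counts are a description. Of 17 tested transcription factors of the enteroendocrine lineage, 13 were higher and 0 lower in KO_nonPC than in WT_nonPC, where 17.5% of all genes tested were higher and 19.8% lower. Neurog3, which starts the lineage, had 100, 151 and 171 counts in KO_nonPC and 27, 23 and 23 in WT_nonPC (log2 2.10, SE 0.438, edgeR adjusted p = 0.00196). Isl1 had 43, 62 and 53 counts against 7, 13 and 2 (log2 2.39, edgeR adjusted p = 0.00483). For both genes the knockout libraries lay above the wild-type ones. The interaction was called for 5 of the 17, all negative as for Sst, where 7.28% of all genes tested had a negative call, with Pax6 at -2.66, Neurog3 at -2.25 and Nkx2-2 at -1.63. In WT_PC against WT_nonPC, 5 of the 17 were higher and 3 lower, near or below the 24.0% and 26.7% of all genes tested, with Foxa2 (log2 2.0) and Nkx2-2 (1.86) higher and Lmx1a (-2.89), a factor of enterochromaffin cells, lower. In KO_PC against KO_nonPC, 2 were higher and 8 lower, against 18.0% and 21.2% of all genes tested, among them Lmx1a (-2.21) and Pax6 (-1.95). Mnx1 was the only one of the 17 called between genotypes in Paneth cells (log2 -0.77, edgeR adjusted p = 0.0448), where 1.52% of all genes tested were lower.

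Among 4 tested granins, none was called between genotypes in either fraction by edgeR, while 3 were lower in WT_PC and 4 in KO_PC than in the nonPC fraction of the same genotype (26.7% and 21.2% of all genes tested). The log2 difference of Chga was -2.0 in WT_PC and -2.20 in KO_PC, and that of Scg2 -2.33 and -2.36. Of 7 tested genes that process prohormones, 2 were higher and 1 lower in KO_nonPC, which on so few genes does not stand apart from the 17.5% and 19.8% of all genes tested. They were Mboat4, Cpe (log2 0.89, edgeR adjusted p = 0.0330), a carboxypeptidase that trims peptides, and Furin (-0.49, edgeR adjusted p = 0.0186), a widely expressed protease. In PC against nonPC of wild-type mice, 0 were higher and 2 lower (Furin at -0.75 and Pam at -0.44). Of all genes tested, 24.0% were higher and 26.7% lower there, so this is no result about the list. In knockout mice 0 were higher and 4 lower, where 18.0% and 21.2% of all genes tested were. The lower ones were led by Mboat4 (-2.67), Scg5 (-1.55) and Cpe (-1.38). No gene of this list was called between genotypes in Paneth cells, where 1.70% of all genes tested were higher and 1.52% lower. The interaction was called for Furin (0.84), where 11.5% of all genes tested had a positive call. Of 12 tested genes of the secretory machinery, 3 were higher (Cplx2 at 1.16, Rab3d at 0.64 and Rph3al at 0.54) and 1 lower in KO_nonPC, which is near the shares of all genes tested (17.5% and 19.8%) and no result about this list. Between fractions, 5 were higher and 2 lower in Paneth cells of wild-type mice (24.0% and 26.7% of all genes tested) and 7 higher and 3 lower in knockout mice (18.0% and 21.2%), and Rab3d, a granule GTPase, was higher in both, at log2 2.97 and 2.83.

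Of 11 tested genes of serotonin handling, 0 were higher and 5 lower in KO_nonPC than in WT_nonPC, where 17.5% of all genes tested were higher and 19.8% lower. The lower ones included Ddc, which completes serotonin synthesis and is also abundant in enterocytes (74.0 against 155 CPM, log2 -1.07, edgeR adjusted p = 3.59e-05), Maoa (-1.11), which breaks serotonin down, and Maob (-1.39). The interaction was called for 4 of the 11, all positive, where 11.5% of all genes tested had a positive call, among them Gch1 (1.08), Slc18a1 (1.0) and Maoa (0.95). In wild-type mice 2 of the 11 were higher and 6 lower in Paneth cells, against 24.0% and 26.7% of all genes tested, with Maob (-3.39), the serotonin transporter Slc6a4 (-2.51) and Gch1 (-2.46) lower. In knockout mice 2 were higher and 7 lower, against 18.0% and 21.2%, with Slc18a1, a vesicular monoamine transporter, higher by 2.84 and Maob (-2.20) and Slc6a4 (-1.65) lower.

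Most receptors for these hormones were too low to test, with 3 of 22 passing the filter. The called one in KO_nonPC against WT_nonPC was Sstr1, a somatostatin receptor named after its values were seen, at 0.969 against 0.263 CPM (log2 1.89, edgeR adjusted p = 0.0194). Sstr3, another somatostatin receptor, was higher in Paneth cells, at 7.68 against 0.223 CPM in wild-type mice (log2 5.10, SE 0.550, edgeR adjusted p = 2.05e-06) and by 5.33 in knockout mice. Of 10 tested nutrient sensors, 3 were higher and 1 lower in KO_nonPC, near the 17.5% and 19.8% of all genes tested, among them Abcc8 (log2 1.36), a channel subunit, and Slc5a1 (-1.70), a glucose transporter that enterocytes also carry in quantity. Ffar3, a receptor for short-chain fatty acids, stood at 3.50 CPM in KO_nonPC and 0.0387 in WT_nonPC (edgeR adjusted p = 0.00945). Between fractions, 5 of the 10 were higher and 2 lower in Paneth cells of wild-type mice (24.0% and 26.7% of all genes tested). In knockout mice 2 were higher and 4 lower (18.0% and 21.2%). Ffar3 was higher in Paneth cells of both genotypes (log2 6.90 and 2.23), with overlapping libraries in knockout mice. Slc5a1 was lower in Paneth cells of both genotypes (-3.61 and -2.41), and Trpa1, an irritant sensor of enterochromaffin cells, lower in KO_PC than in KO_nonPC (-3.30). Of 15 other hormone genes 3 were tested, and Nucb2, whose product nesfatin also comes from other cells, was higher in Paneth cells by 5.26 in wild-type and 5.07 in knockout mice.

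Markers of other cell types differed between the same groups, where 17.5% of all genes tested were higher and 19.8% lower in KO_nonPC. The 8 enterocyte markers summed to 26116 to 27189 CPM in WT_nonPC and 4815 to 6420 in KO_nonPC, and 3 of the 8 tested were called lower and 0 higher. Alpi, a defining one, had 12738, 12528 and 11117 counts in WT_nonPC and 5756, 3395 and 4454 in KO_nonPC (log2 -1.82, edgeR adjusted p = 0.0590). The 8 tuft cell markers summed to 3.69 to 10.3 CPM in WT_nonPC and 69.7 to 279 in KO_nonPC, with 6 of 7 tested higher, and Dclk1 had 7, 52 and 12 counts against 1353, 2162 and 484. The 6 stem cell markers summed to 3910 to 5216 CPM in WT_nonPC and 5169 to 6528 in KO_nonPC, with 4 of 6 higher, and Lgr5 stood at 35.6 and 54.6 CPM. Goblet markers had 2 of 7 lower, among them Muc2 (log2 -1.24, edgeR adjusted p = 0.00992), Paneth markers 1 of 7 higher and immune markers 2 of 4 tested lower. In wild-type mice, 7 of 7 Paneth, 7 of 7 tuft and 6 of 6 stem cell markers were higher in the PC fraction. Of enterocyte markers, 8 of 8 were lower there. Of goblet markers 2 of 7 were higher and 3 lower, and of immune markers 1 of 4 tested was higher and 0 lower. Of all genes tested, 24.0% were higher and 26.7% lower there. The part of these cell types in the differences of the members was not tested. The immune gene Ptprc had 157 and 326 counts in KO_PC replicates 1 and 2 and 71 and 145 in KO_nonPC replicates 1 and 2, against 3 to 48 in the other 8 libraries, and the endothelial gene Pecam1 had 0 to 10 counts throughout. Xist had 1560 and 3689 counts in WT_PC and WT_nonPC replicate 2 and 0 to 8 in each of the other 10 libraries. Without WT_nonPC replicate 2, Sst was still called in KO_nonPC against WT_nonPC, while Gip and Ghrl were not. Nts and Pyy were then not called in WT_PC against WT_nonPC. In the interaction, Sst was called without either library. The part of this difference between libraries in the results was not tested.

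The choice of scaling changed the size of the differences and, for some members that were not called, the sign. Scaling by library totals alone, in place of TMM, moved the median log2 difference of all genes to 0.31 in KO_nonPC against WT_nonPC, to -0.68 in WT_PC against WT_nonPC and to -1.05 in KO_PC against KO_nonPC. Of called genes, 74.6%, 12.2% and 7.57% were then higher in these comparisons. Sst, Gip and Ghrl were still called higher in KO_nonPC, at log2 3.98, 2.81 and 2.78. Sst was still higher in WT_PC than in WT_nonPC (2.28), whereas the sign of Sct turned to -0.29 between fractions of wild-type mice, to -0.43 between those of knockout mice and to -0.14 in the interaction. Under the same scaling Ghrl stood at -0.11 in WT_PC against WT_nonPC and Pyy at 0.11 in KO_nonPC against WT_nonPC, both also with the sign turned. Tph1 in KO_nonPC against WT_nonPC was at or just below 0 with the size factors of DESeq2 and with the Lyz1 and Defa genes left out of the scaling.

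Within groups, members tended to be high or low in the same libraries. After subtraction of group means from log2(CPM + 1), the 45 pairs of members had a median Pearson r of 0.50 over the 12 libraries, and 41 were positive. The pairs share libraries, scaling and the enteroendocrine content of each sample, so the r values are a description. Gip and Tac1 were the closest pair (r = 0.92), followed by Sct and Tph1 (0.90) and Tac1 and Tph1 (0.88). Sst stood apart, with r between -0.31 (with Cck) and 0.40 (with Nts). In WT_PC replicate 3 all 10 members were below their group mean, as were 9 of the 10 in WT_nonPC replicate 3 and in KO_nonPC replicate 1. Gip was far below its group mean in both replicate 3 libraries of wild-type mice, with 38 counts in the PC library beside 235 and 157, and 25 in the nonPC library beside 197 and 178.

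**Figure D5:**
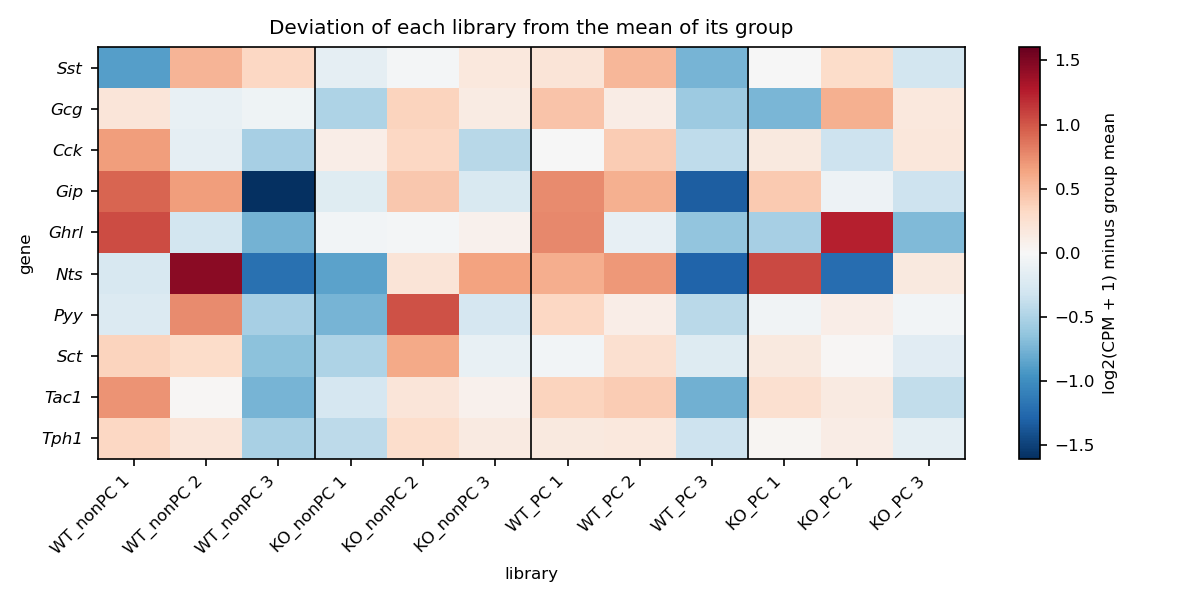
Colours give the deviation of each library from the mean of its group in log2(CPM + 1) for the 10 genes, with vertical lines between groups. WT_PC replicate 3 and WT_nonPC replicate 3 are below their group mean for 10 and 9 of the 10 genes, and Sst follows the others least.

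The genes whose pattern over the 12 libraries was most like that of each member were ranked by Pearson r of log2(CPM + 1), a description that includes the differences between groups. Tph1 was most like Chga (r = 0.98), Grm4 and Disp2 (both 0.97). Cck was closest to Chgb (0.95), Mrpl9 and Tac1 (both 0.94), and Tac1 to Lgals2 (0.95), Tph1 (0.95) and Cck (0.94). Pyy followed Hs3st1 (0.92), Tph1 and 2010001K21Rik (both 0.91), and Nts 2010001K21Rik (0.94), Fmo2 (0.93) and Bcl2l15 (0.92). The genes nearest to Sst were Ctnnal1, Shq1 and Mif (all 0.93), and those nearest to Ghrl Ppp1r1b (0.94), Hira (0.91) and Lonp1 (0.90). Gip had Gipc1 (0.88), Ddx59 and Map2k5 (both 0.87), Gcg had Reep4 (0.89), Casp2 and Selenbp2 (both 0.88), and Sct had Sgk3 (0.94), Aim2 (0.89) and BC051226 (0.88). Chromogranins were thus among the nearest genes of Tph1 and Cck alone of the 10 members.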

How the data were processed

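RNA of sorted Paneth and non-Paneth crypt cells was sequenced as single-end, stranded libraries, 3 per group. Per the submitters' processing notes and the study's methods, the authors trimmed reads with Trimmomatic (0.39), aligned them with STAR (2.7.10a) to mm39 and deposited STAR's whole-number count of reads per gene and library. The strand counted was not stated, so reads of overlapping antisense genes may be included. Symbols, positions and lengths came from GENCODE vM39 and matched 54749 of the 55414 gene identifiers.

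Levels are CPM after TMM scaling. The test was edgeR's (4.0.16, R 4.3.3) robust quasi-likelihood test with 1 mean per group over all 12 libraries and genes kept by filterByExpr. Benjamini-Hochberg adjustment covered all 13057 genes, with 0.05 as the threshold. Standard errors are the log2 difference over the root of the F statistic. DESeq2 (1.42.0) was an alternative, as were other scalings and filters, replicate blocks and leaving out each library. A pseudocount of 1 CPM was used for correlations only. The edgeR fit was tested on simulated data with the same dispersion for all genes and no replicate pairing. That setting is simpler than these libraries, so it does not show how the test performs on members that vary widely. Intervals and the limit of 3 counts for a count of 0 cover counting error only. Nothing in the labels says that same-numbered samples came from 1 mouse. Correlations of deviations from group means between same-numbered PC and nonPC libraries were 0.40, 0.25 and 0.31 in wild-type mice, all over the limit of 0.1, and the number was taken as a pairing there. Labels do not say that the libraries of a group are separate mice, so p-values measure the spread between these samples.

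The members and all lists were chosen with earlier results of these data known. Besides the members, genes named are the up to 3 called genes per list and comparison with the largest difference and at least 1 CPM in a compared group, the 3 genes most like each member, and set markers. Some genes that this rule selects are not reported here.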

Additional observations from a re-analysis of the deposited data

Results flagged for a closer look

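Sst, the somatostatin gene, stood out because its genotype effects in the 2 fractions pointed in opposite directions and differed by the interaction test, by -5.15 on the log2 scale (SE 0.618, edgeR adjusted p = 0.000646). All 3 KO_PC libraries lay below the WT_PC libraries, and all 3 KO_nonPC libraries lay above the WT_nonPC libraries. The genotype effect in the PC fraction was not called by itself (log2 -1.46, edgeR adjusted p = 0.0749), and was called under 3 of 14 alternatives.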

How the results depend on the processing

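Of 749 values of single members under an alternative, 679 stayed on their side of the threshold, 20 lost the call, 50 gained it and 0 reversed a called direction, while 28 uncalled values changed sign. In KO_PC against WT_PC, the 0 members called became 2 with DESeq2, 5 without the low-count filter and 0 to 1 on leaving out a library. Of all genes there, 420 were called, against 1421 with DESeq2, 2 with library totals, 1780 without the filter, 0 in a fit of these groups alone (2341 at an unadjusted p below 0.05), 977 with a replicate block by number and 0 to 1618 on leaving out a library. In KO_nonPC against WT_nonPC, the 3 members called became 6 without the filter and 1 to 4 on leaving out a library. For the interaction, 1 member became 4 with DESeq2, 2 with library totals, 6 without the filter, 5 with the replicate block within genotype (Sst, Gcg, Cck, Gip and Tac1) and 1 to 3 on leaving out a library, and the 2446 genes called became 1563 to 2607 on leaving out a library. Library totals called 10784 genes in KO_PC against KO_nonPC, where the chosen scaling called 5117. Where no value above shows the cause of such a shift, the cause was not tested.

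In knockout mice, same-numbered PC and nonPC libraries had correlations of -0.079, 0.25 and 0.48. These were not all over the limit of 0.1, so the number was not taken as a pairing there. Whether these samples came from the same mice is not known. The replicate block called 9 members in KO_PC against KO_nonPC, with Gip and Ghrl added to the 7. The block by number gave 3 members in KO_nonPC against WT_nonPC and 0 in KO_PC against WT_PC, the counts found without it. Few counts limit Pyy in PC libraries, and 3 libraries per group limit the tests of Gip, Ghrl and Nts, whose libraries varied widely.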

Other observations

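Gast, the gastrin gene of G cells, had 178 counts in KO_nonPC replicate 3, 3 in KO_PC replicate 3, 1 in WT_PC replicate 2 and none in the other 9 libraries. Pcsk2, a prohormone convertase, had 15 counts in KO_nonPC replicate 3, 2 in KO_PC replicate 3 and none elsewhere. Both genes were named after their values were seen, and neither passed the filter on low counts. Iapp, the amylin gene, which D cells of the gut can also express, had 0.743 CPM in KO_nonPC and 0.0796 in WT_nonPC (log2 3.12, edgeR adjusted p = 0.00406), and its interaction value was -4.50 (edgeR adjusted p = 0.00932), the same signs as Sst. It was likewise named after its values were seen, and its level is low in all groups.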
